A study of Mus musculus with 4 samples.

Results

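The cells described here, labelled recruited monocytes, are Csf1r-positive cells of malignant pleural effusions that carried transcripts of Vcan, a matrix proteoglycan, and of Ccr2, the receptor by which monocytes follow CCL2 out of the blood. They were chosen by UMI counts (a unique molecular identifier, UMI, marks 1 captured RNA molecule). Each had at least 1 UMI of Csf1r, at least 2 of Vcan and at least 2 of Ccr2, under 5 UMIs of Lyve1 and under 3 UMIs of Cd163 and Ccl24 together per 10000 UMIs. These members numbered 3095 of the 13578 cells kept. They were 857 of 3548 cells in the combination library, 1017 of 3830 in LNP-cGAMP, 813 of 3379 under anti-PD-L1 and 408 of 2821 in PBS.

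All mice were C57BL/6 with effusions raised by Lewis lung carcinoma (LLC) cells, a mouse lung cancer line, and all were injected into the pleural cavity on day 11. The combination group received LNP-cGAMP together with an anti-PD-L1 antibody. The LNP-cGAMP group received the particles (1 µg) alone, the anti-PD-L1 group the antibody (30 µg) alone, and the control group PBS; the labels do not repeat the doses for the combination. LNP-cGAMP is a nanoparticle that carries cGAMP, the cyclic dinucleotide made by cGAS, which switches on the adaptor STING, and the antibody 10F.9G2 binds PD-L1, a ligand that restrains T cells through PD-1. Fluid was taken on day 13, 48 h later, and each group gave 1 single-cell RNA library (10x Genomics Chromium) from the pooled cells of 3 mice. With 1 library a group, no difference below has a replicate check and no p-value is given; intervals cover counting error only.

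Monocytes that leave the blood through Ccr2 carry Ly6c2, Plac8, Hp and Chil3 at first, and lose them as they take on C1q, Apoe and other macrophage genes in a tissue. Type I interferon, which STING signalling releases, switches on genes such as Isg15 and Irf7. Interferon-gamma, a product of T and NK cells, switches on Gbp genes and, by way of Ciita, MHC class II genes. MHC class I molecules show peptides to CD8 T cells and class II molecules show them to CD4 T cells.

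The genes of the rule set what a member is, so their levels are a description. Levels are given as UMIs per 1000000 UMIs (CPM) in the summed members of a library. Vcan had 317 CPM in the combination, 280.5 in LNP-cGAMP, 566 under anti-PD-L1 and 532 in PBS. Ccr2 had 593 CPM in the combination, 692 in LNP-cGAMP, 822 under anti-PD-L1 and 813.5 in PBS. A member held a median of 5 Vcan UMIs in the combination, 5 in LNP-cGAMP, 11 under anti-PD-L1 and 9 in PBS, so Vcan was lower in both libraries with LNP-cGAMP and more of their cells lay near the limit of 2. Members with exactly 2 Vcan UMIs numbered 160 in the combination, 184 in LNP-cGAMP, 31 under anti-PD-L1 and 36 in PBS. Cells left outside with 1 Vcan UMI and at least 2 Ccr2 UMIs numbered 178 in the combination, 218 in LNP-cGAMP, 42 under anti-PD-L1 and 46 in PBS. Just inside and just outside that limit, Chil3 stood at 796 and 710 CPM in the combination, at 1035 and 636 CPM in LNP-cGAMP, at 1115 and 1297 CPM under anti-PD-L1 and at 928 and 619 CPM in PBS. Cells that passed for Vcan and Ccr2 but were barred by Lyve1 or by Cd163 and Ccl24 numbered 70 in the combination, 50 in LNP-cGAMP, 123 under anti-PD-L1 and 189 in PBS.

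Of the 5 markers given with the label (Vcan, Ccr2, Chil3, Thbs1 and Fn1), Chil3, a chitinase-like secreted protein, set the members apart from other Csf1r-positive cells in every library, and Fn1 did not. Chil3 had 1762 CPM in the combination, 1907 in LNP-cGAMP, 3528 under anti-PD-L1 and 2453 in PBS; the ratio of members over the other Csf1r-positive cells was at least 1.91 on the log2 scale in each library. Fibronectin (Fn1) had 236 CPM in the combination, 113 in LNP-cGAMP, 475 under anti-PD-L1 and 778 in PBS in members, beside 409 CPM in the combination, 60.3 in LNP-cGAMP, 708 under anti-PD-L1 and 845 in PBS in those remaining Csf1r-positive cells that were neither members nor high in Lyve1, Cd163 or Ccl24. Thrombospondin 1 (Thbs1) had 274 CPM in the combination, 287 in LNP-cGAMP, 446 under anti-PD-L1 and 730.5 in PBS in members. In those remaining cells it had 236 CPM in the combination, 166.5 in LNP-cGAMP, 290 under anti-PD-L1 and 205 in PBS, so members stood above them most in PBS. In cells high in Cd163 and Ccl24 but not in Lyve1 it had 275 CPM in the combination, 363 in LNP-cGAMP, 285 under anti-PD-L1 and 315 in PBS. Members were thus not above these cells in the combination or in LNP-cGAMP. Hp, Ly6c2 and Plac8 of circulating monocytes were also higher in members than in the other Csf1r-positive cells of each library. The markers of an early monocyte were thus present, whereas the origin of the cells was not measured. Macrophage genes were present as well: 63.0% of members in the combination, 66.1% in LNP-cGAMP, 44.2% under anti-PD-L1 and 51.2% in PBS were high in C1q, so the rule takes in cells further along than an early monocyte. Of 3298 genes measured (at least 20 UMIs in all and 50 CPM in 1 library), 32 were at least 1.5-fold higher and 25 at least 1.5-fold lower in members in all 4 libraries. These counts follow from how the cells were chosen.

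The share of members among Csf1r-positive cells was higher in all 3 treated libraries than in PBS at the deposited depth, and this order did not hold at equal depth. The share was 32.6% (95% exact binomial interval 30.8 to 34.5) in the combination, 44.0% (42.0 to 46.1) in LNP-cGAMP, 36.3% (34.3 to 38.3) under anti-PD-L1 and 22.4% (20.5 to 24.4) in PBS. Cells with at least 5000 UMIs numbered 2727 of 3548 in the combination, 2630 of 3830 in LNP-cGAMP, 2353 of 3379 under anti-PD-L1 and 1836 of 2821 in PBS. When these were thinned to 5000 UMIs and the rule applied again, shallower cells being left out, the share was 13.0% (11.5 to 14.6) in the combination, 17.1% (15.1 to 19.3) in LNP-cGAMP, 23.1% (21.0 to 25.3) under anti-PD-L1 and 13.6% (11.8 to 15.6) in PBS. The intervals of anti-PD-L1 and PBS stayed apart at both depths. The combination and PBS overlapped after thinning, and LNP-cGAMP and PBS overlapped by a narrow margin. Of all kept cells, members were 24.2% in the combination, 26.6% in LNP-cGAMP, 24.1% under anti-PD-L1 and 14.5% in PBS; of the cells thinned, they were 8.58% in the combination, 8.63% in LNP-cGAMP, 15.0% under anti-PD-L1 and 9.48% in PBS. The level of Vcan, which the rule counts, itself differed between the libraries, and a share is no count of cells per animal.

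**Figure D1:**
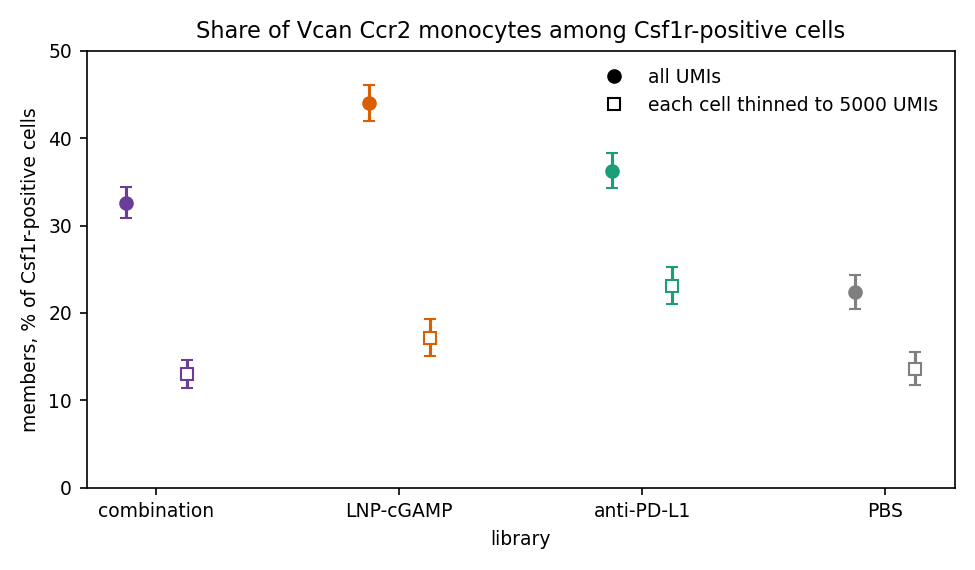
Members as a percentage of Csf1r-positive cells (vertical axis) in the combination, LNP-cGAMP, anti-PD-L1 and PBS libraries, with all UMIs (filled circles) and with cells of at least 5000 UMIs thinned to 5000 (open squares); bars are exact 95% binomial intervals. LNP-cGAMP is highest at 44.0% with all UMIs, and anti-PD-L1 is highest at 23.1% after thinning.

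The libraries differed in ways the treatments do not name. Library totals were 68828158 to 88855120 UMIs, and members had a median of 18183 to 20438 UMIs and 3978 to 4328 genes. Mitochondrially encoded (mt-) transcripts were a median of 2.07% of a member's UMIs in the combination, 1.20% in LNP-cGAMP, 3.08% under anti-PD-L1 and 3.35% in PBS. The pools also differed in the sex of the mice: of members with a call from Xist or Y-linked transcripts, 79.2% were female in the combination, 0.108% in LNP-cGAMP (1 cell), 73.7% under anti-PD-L1 and 0% of 356 in PBS (exact binomial upper limit 1.03%). The labels give no sex. All 211 Xist UMIs of PBS members lay in 3 cells that carried tumour cell markers. Members with at least 3 UMIs over 9 cell-cycle genes were 5.37% in the combination, 3.05% in LNP-cGAMP, 6.03% under anti-PD-L1 and 11.3% in PBS. Background RNA was estimated at 1.16% to 3.35% of a member's UMIs, and 14 members had a barcode that was also a kept cell in another library. The part of these differences in the results below was not tested, except where values for male-called members, for members outside the cell cycle or without cells of other markers are given.

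LNP-cGAMP alone, set against PBS, had the most differing genes: 333 of 3298 were at least 1.5-fold higher (10.1%) and 222 at least 1.5-fold lower (6.73%) on the scale log2((CPM + 10)/(CPM + 10)), with a median of 0.06 over all genes. Interferon-stimulated genes, MHC class I genes, Ly6c2 and the acute-phase gene Saa3 were higher, and MHC class II genes, Fn1, Il1b and cell-cycle genes were lower. Folds below are plain ratios of CPM. Both pools gave male calls, so this comparison is not one between sexes.

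Saa3, a serum amyloid A protein of the acute phase made by macrophages in the mouse (chr7:46711998-46715700, minus strand, GRCm38), led the ranking. It had 4195 CPM in the combination, 5272 in LNP-cGAMP, 179 under anti-PD-L1 and 100 in PBS. LNP-cGAMP was 52.7-fold (95% interval 49.5 to 56.2) higher than PBS, and the 2 libraries with LNP-cGAMP stood far above the other 2. In single members Saa3 was spread widely: the median member had 3.31 Saa3 UMIs per 10000 in the combination, 12.1 in LNP-cGAMP, 0 under anti-PD-L1 and 0 in PBS, and the 90th percentile was 157 in the combination, 173 in LNP-cGAMP, 3.50 under anti-PD-L1 and 1.91 in PBS. At 5000 UMIs a cell, Saa3 was seen in 79.4% of members in the combination, 84.2% in LNP-cGAMP, 22% under anti-PD-L1 and 15.4% in PBS. The share of T cells with a Saa3 UMI at that depth was 55.4% in the combination and 57.6% in LNP-cGAMP, against 14.0% under anti-PD-L1 and 4.17% in PBS, which is the level that background RNA can give in cells not expected to make it. The exact binomial intervals of members and T cells stood apart in the combination and in LNP-cGAMP and overlapped in the anti-PD-L1 library and in PBS.

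The type I interferon list had 29 of 41 measured genes higher and 0 lower after LNP-cGAMP, with a median of 0.94. Irf7, the transcription factor that amplifies the interferon response (chr7:141262706-141266481, minus strand), had 847 CPM in the combination, 1226 in LNP-cGAMP, 495 under anti-PD-L1 and 292 in PBS. LNP-cGAMP was 4.19-fold (95% interval 4.03 to 4.36) higher than PBS. Isg15, a ubiquitin-like protein, had 667 CPM in the combination, 914 in LNP-cGAMP, 547 under anti-PD-L1 and 377 in PBS. Ifi27l2a, a mitochondrial interferon-stimulated gene, had 2400 CPM in the combination, 2230 in LNP-cGAMP, 1229 under anti-PD-L1 and 818 in PBS. For Irf7 and Isg15 the order of the libraries was the same, with LNP-cGAMP highest, the combination next, then anti-PD-L1, and PBS lowest. Ifitm3, which blocks virus entry, had the highest level of the list and differed little, at 7423 CPM in the combination, 7334 in LNP-cGAMP, 7584 under anti-PD-L1 and 6482 in PBS. The interferon-gamma list had 4 of 17 measured genes higher and 0 lower after LNP-cGAMP (median 0.45). In single members the summed type I list had a median of 187 UMIs per 10000 in the combination, 197 in LNP-cGAMP, 167 under anti-PD-L1 and 137 in PBS, and the 10th percentile of LNP-cGAMP, 145, lay above the PBS median.

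The promoters of this list were looked at for the interferon-stimulated response element, a site of IRF factors, spelled GAAA, 2 bases of any kind, then GAAA, and searched on both strands from 250 bases before to 50 bases after each RefSeq start (GRCm38.p6). The motif was in 18 of 32 genes of the list with a promoter (56.3%), beside 1079 of 27025 genes in the whole table (3.99%) and 144 of 2569 measured genes (5.61%). Among all genes higher after LNP-cGAMP it was in 38 of 257 (14.8%), and among those lower in 5 of 156 (3.21%). The gamma-activated site TTCNNNGAA was in 7 of 32 list genes (21.9%), beside 2582 of 27025 (9.55%). A match is a description of the letters and not a bound site. The 150 bases before the start are shown for Isg15 (chr4:156200819-156200968), the most abundant list gene with the motif in that stretch, for Ifi205 (chr1:174031756-174031905), the one with the largest difference, and for Saa3 (chr7:46715677-46715826), the gene that differed most of all. All 3 lie on the minus strand and are written 5′ to 3′ along the gene, with the motif in capitals.
Isg15: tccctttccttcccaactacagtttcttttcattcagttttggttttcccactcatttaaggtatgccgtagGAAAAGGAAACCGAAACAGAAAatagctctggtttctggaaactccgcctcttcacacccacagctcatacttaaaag
Ifi205: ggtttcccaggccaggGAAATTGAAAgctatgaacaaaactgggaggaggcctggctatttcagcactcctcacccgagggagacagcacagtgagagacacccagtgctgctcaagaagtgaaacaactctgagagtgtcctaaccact
Saa3: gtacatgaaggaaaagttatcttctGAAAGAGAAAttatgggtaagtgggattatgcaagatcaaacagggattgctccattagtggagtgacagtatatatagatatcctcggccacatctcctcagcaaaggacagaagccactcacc
Isg15 has 3 overlapping matches, of which the nearest begins 66 bases before the RefSeq start. The single match in the printed stretch begins 134 bases before that start in Ifi205, which has 2 matches in the whole searched window. In Saa3 it begins 125 bases before the RefSeq start, which there lies inside the gene span given above from GENCODE. Ifi205, a DNA-sensing family member, had 91.6 CPM in the combination, 153 in LNP-cGAMP, 59.2 under anti-PD-L1 and 31.0 in PBS. The levels of Isg15, Ifi205 and Saa3 were all highest in LNP-cGAMP.

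Genes of MHC class I presentation had 10 of 21 measured higher and 1 lower (median 0.56). The classical heavy chain H2-K1 had 3830 CPM in the combination, 4507 in LNP-cGAMP, 2207 under anti-PD-L1 and 1702 in PBS, and LNP-cGAMP was 2.65-fold (95% interval 2.6 to 2.69) higher than PBS. The heavy chain H2-D1 had 4313 CPM in the combination, 5154 in LNP-cGAMP, 3170 under anti-PD-L1 and 2732 in PBS. B2m, the light chain of class I, had 3236 CPM in the combination, 3448 in LNP-cGAMP, 2382 under anti-PD-L1 and 1948 in PBS. The order was the same for these 3, with LNP-cGAMP highest and PBS lowest. The non-classical heavy chain H2-Q7 (chr17:35439155-35443773, plus strand) had 388.5 CPM in the combination, 513 in LNP-cGAMP, 97.3 under anti-PD-L1 and 54.0 in PBS. H2-Q6 had 113 CPM in the combination, 186 in LNP-cGAMP, 16.7 under anti-PD-L1 and 8.36 in PBS, but H2-Q6 and H2-Q7 are near-identical copies and their reads could be split between them in counting. The chaperone Calr was the 1 gene lower, at 681 CPM in LNP-cGAMP, against 1330 CPM in PBS.

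MHC class II went the other way. Of 7 measured genes 0 were higher and 6 lower after LNP-cGAMP (median -2.75). H2-Aa, a class II alpha chain (chr17:34282744-34287823, minus strand), had 462 CPM in the combination, 124.5 in LNP-cGAMP, 1076 under anti-PD-L1 and 1294 in PBS, which made LNP-cGAMP 10.4-fold (95% interval 9.97 to 10.8) lower than PBS. H2-Eb1, a beta chain, had 256 CPM in the combination, 60.4 in LNP-cGAMP, 577 under anti-PD-L1 and 856 in PBS. Cd74, the invariant chain, had 1719 CPM in the combination, 630 in LNP-cGAMP, 4117 under anti-PD-L1 and 4286 in PBS. For each of these the combination lay between LNP-cGAMP and the other 2 libraries. The protease Ctss was the 1 gene not lower, at 3359 CPM in LNP-cGAMP, against 2543 CPM in PBS. Class II transcripts, here H2-Aa, H2-Ab1, H2-Eb1 and Cd74 summed and not the whole list, were spread unevenly over members. Their 90th percentile was 78.8 UMIs per 10000 in the combination, 24.5 in LNP-cGAMP, 176 under anti-PD-L1 and 226 in PBS. Their median was 2.69 in the combination, 1.17 in LNP-cGAMP, 21.5 under anti-PD-L1 and 5.39 in PBS. Markers of dendritic cells, which are rich in class II, gave no single order. Clec10a, which some macrophages also carry, had 123.5 CPM in the combination, 155 in LNP-cGAMP, 68.9 under anti-PD-L1 and 72.6 in PBS. Of the UMIs of all members, the 6 defining markers Flt3, Zbtb46, Cd209a, Clec9a, Xcr1 and Ccr7 together had 93 of 18587434 in the combination, 34 of 22296663 in LNP-cGAMP, 143 of 17747076 under anti-PD-L1 and 71 of 9567384 in PBS. These marker UMIs were fewest in LNP-cGAMP, where class II was also lowest. At least 3 of them were found in 4 of 857 members of the combination, 3 of 1017 of LNP-cGAMP, 4 of 813 of anti-PD-L1 and 5 of 408 of PBS. Without members of other markers and the top 5% by UMI the class II median of LNP-cGAMP over PBS was -2.72.

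Chemokines that draw monocytes had 5 of 8 measured genes higher and 0 lower (median 0.90). Ccl7 and Ccl12 are ligands of Ccr2. Ccl8 had 1219 CPM in the combination, 1368 in LNP-cGAMP, 151 under anti-PD-L1 and 306 in PBS. Ccl7 had 1821 CPM in the combination, 1701 in LNP-cGAMP, 624 under anti-PD-L1 and 869 in PBS. Ccl12 had 1139 CPM in the combination, 1942 in LNP-cGAMP, 518 under anti-PD-L1 and 771 in PBS. Both libraries with LNP-cGAMP were above the other 2 for each of the 3 genes, and Ccl8 was 4.46-fold (95% interval 4.3 to 4.64) higher in LNP-cGAMP than in PBS. Ccl2 itself was level, at 1870 CPM in LNP-cGAMP, against 1717 CPM in PBS, and Ccl6, the most abundant of the list, stood at 9773 CPM in LNP-cGAMP, against 11789 CPM in PBS.

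Of 19 classical monocyte genes 8 were higher and 3 lower (median 0.41). Ly6c2, a surface marker of inflammatory monocytes (chr15:75108158-75111970, minus strand), had 1377 CPM in the combination, 1686 in LNP-cGAMP, 830.3 under anti-PD-L1 and 252 in PBS; LNP-cGAMP was 6.7-fold (95% interval 6.43 to 6.99) higher than PBS. Ly6a, a surface protein of the same family as Ly6c2, had 4229 CPM in the combination, 5110 in LNP-cGAMP, 3335 under anti-PD-L1 and 2008 in PBS. Lysozyme (Lyz2) and the calcium-binding S100a4 were lower after LNP-cGAMP. Lyz2 had 4215 CPM in the combination, 2790 in LNP-cGAMP, 7264 under anti-PD-L1 and 7657 in PBS, and S100a4 stood at 571 CPM in LNP-cGAMP, against 1402 CPM in PBS. Ly6c2 and Ly6a are known to respond to interferon in the mouse as well.

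Matrix genes divided evenly, with 5 of 16 higher and 5 lower (median 0.11). Fn1 was 6.91-fold (95% interval 6.61 to 7.23) lower in LNP-cGAMP than in PBS and Thbs1 2.54-fold (95% interval 2.46 to 2.63) lower. Spp1 (osteopontin) was higher, at 976 CPM in LNP-cGAMP, against 346 CPM in PBS, as was the collagenase Mmp8, at 266 CPM in LNP-cGAMP, against 41.3 CPM in PBS. Ecm1, a secreted matrix protein, stood at 1113 CPM in LNP-cGAMP, against 418 CPM in PBS. In the interleukin-1 list 5 of 7 genes were higher and 1 lower: Il1b, the inflammasome-processed cytokine, was the 1 lower and had 25.2 CPM in the combination, 43.9 in LNP-cGAMP, 139 under anti-PD-L1 and 235 in PBS. The processing enzyme Casp1 was higher, at 346 CPM in LNP-cGAMP, against 164 CPM in PBS. The cytokine Il18, which Casp1 also processes, was higher at 164 CPM in LNP-cGAMP, against 64.1 CPM in PBS. Arg1, which degrades arginine, had 1855 CPM in the combination, 1116 in LNP-cGAMP, 1873 under anti-PD-L1 and 2323 in PBS. Among the 12 measured cell-cycle genes 10 were lower and 0 higher (median -1.18), and -0.59 when cycling members were left out. Birc5, Top2a, Cenpa and Ube2c of this list are also among the genes that call a cycling member. Leaving out cycling members thus removes UMIs of these genes by construction, and the smaller median is no separate check.

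Among the other genes that led the ranking, Gzmb, Nkg7, Cald1 and Igfbp4 were carried mostly by members with markers of other cells. Gzmb, the cytotoxic granule protease of T and NK cells, had 10.2 CPM in the combination, 218 in LNP-cGAMP, 9.86 under anti-PD-L1 and 1.25 in PBS, but 93.4% of its 4867 UMIs in LNP-cGAMP lay in 21 members with T or NK cell markers and 1904 in 1 cell. Without members with markers of other cells and without the top 5% by UMI, the log2 ratio of Gzmb was 1.26, beside 4.34 with them. For Nkg7 it was 0.74 beside 2.52, and for Ccl5, a chemokine of T cells and of activated macrophages, 3.09 beside 3.54. Ccl5 was spread more widely, with UMIs in 554 of the 1017 LNP-cGAMP members. The 5 T cell markers summed to 10.1 CPM in the combination, 72.7 in LNP-cGAMP, 21.2 under anti-PD-L1 and 6.38 in PBS, and the 5 NK cell markers to 53.1 CPM in the combination, 98.9 in LNP-cGAMP, 72.4 under anti-PD-L1 and 41.0 in PBS. Cald1, an actin-binding protein, stood at 2.65 CPM in LNP-cGAMP, against 81.6 CPM in PBS, and Igfbp4, which binds insulin-like growth factors, at 4.08 CPM in LNP-cGAMP, against 76.6 CPM in PBS. In PBS 5 members with tumour cell markers held 99.2% of the 781 Cald1 UMIs and 86.0% of the 733 Igfbp4 UMIs. Without members of other markers and the top 5% by UMI the log2 ratios were -0.10 for Cald1 and -0.78 for Igfbp4. Cald1 is itself among the markers that call a tumour cell, so its values here follow from the call. Igfbp4 is not among those markers. The 7 tumour cell markers summed to 66.3 CPM in the combination, 28.4 in LNP-cGAMP, 1.13 under anti-PD-L1 and 194 in PBS. Nrg4, an epidermal growth factor family ligand, stood at 73.8 CPM in LNP-cGAMP, against 3.76 CPM in PBS, and Mrap, an accessory protein of melanocortin receptors, at 60.3 CPM in LNP-cGAMP, against 1.67 CPM in PBS. Both were also high in the other Csf1r-positive cells of LNP-cGAMP. Nrg4 had 93.2 CPM and Mrap 143.5 CPM in cells high in Cd163 and Ccl24 but not in Lyve1. In the remaining Csf1r-positive cells Nrg4 had 67.0 CPM and Mrap 66.2 CPM. Lyve1-high cells, of which there were only 29, had 95.3 CPM for Nrg4 and 182 CPM for Mrap.

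**Figure D2:**
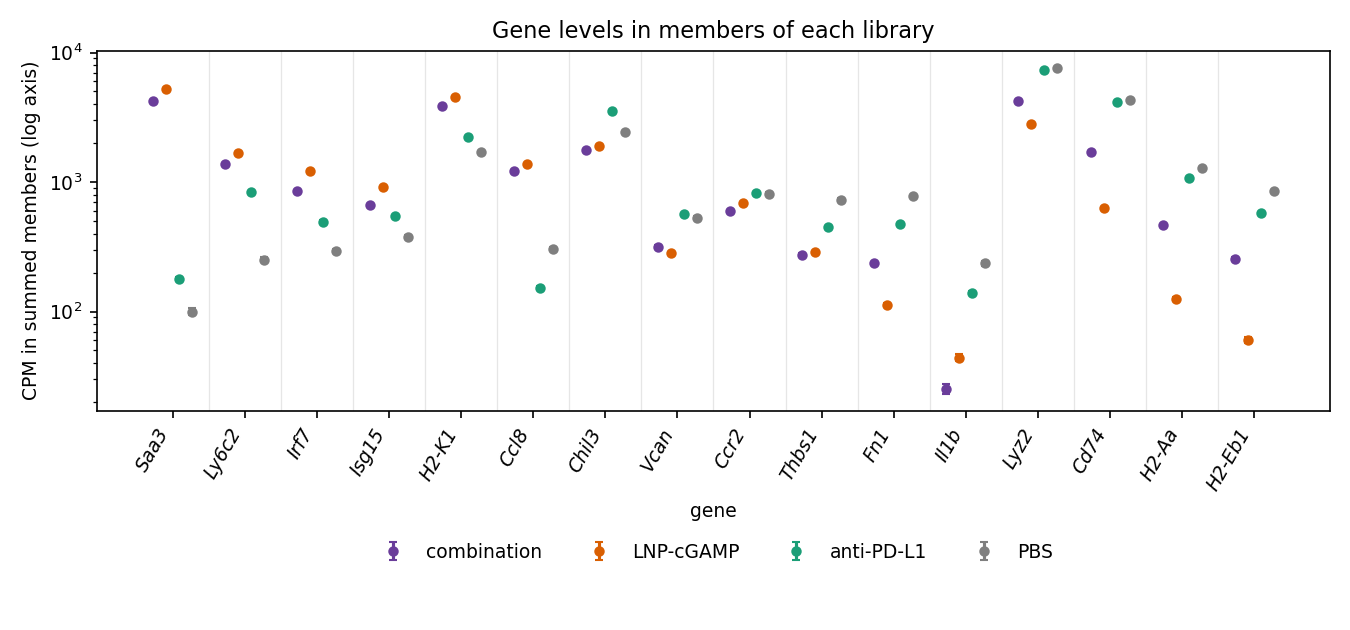
CPM in the summed members (vertical axis, log scale) of 16 genes in the combination, LNP-cGAMP, anti-PD-L1 and PBS libraries; bars are exact 95% Poisson intervals and are mostly smaller than the points. Saa3, Ly6c2, Irf7, H2-K1 and Ccl8 are higher in the combination and LNP-cGAMP, and Fn1, Il1b, Cd74, H2-Aa and H2-Eb1 are lower there.

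**Figure D3:**
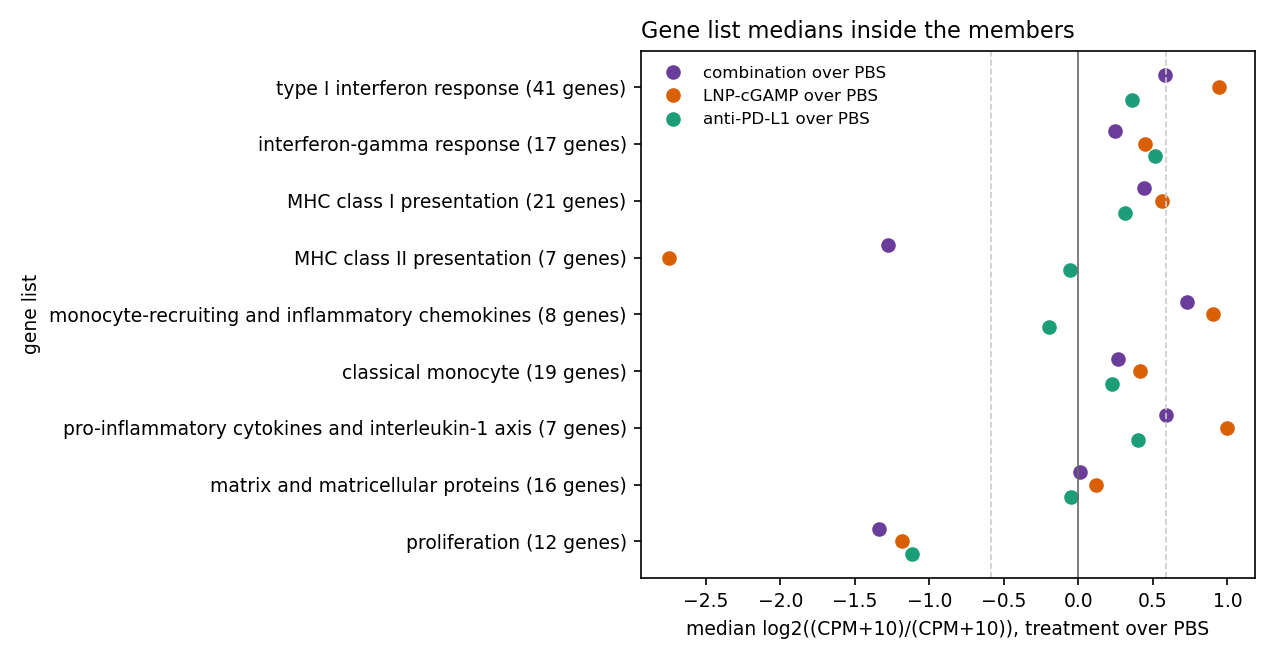
Median log2 ratio over PBS (horizontal axis) of 9 gene lists (down the page, with the number of measured genes) in members of the combination, LNP-cGAMP and anti-PD-L1 libraries; dashed lines mark 1.5-fold. Of these 9 lists MHC class II has the lowest median, -2.75 in LNP-cGAMP, and proliferation genes are below the line in all 3.

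The antibody alone differed less from PBS. With anti-PD-L1, 57 of 3298 genes were at least 1.5-fold higher (1.73%) and 53 at least 1.5-fold lower (1.61%), with a median of 0.01 over all genes. Ly6c2 was 3.3-fold (95% interval 3.16 to 3.45) higher than in PBS, and several genes that answer to interferon-gamma were higher. In the interferon-gamma list 6 of 17 measured genes were higher, with 0 lower (median 0.52), beside the 1.73% of all genes. Gbp2b, a guanylate-binding protein of cell-autonomous defence, had 179 CPM in the combination, 103 in LNP-cGAMP, 271 under anti-PD-L1 and 121 in PBS. Socs1, the feedback inhibitor of interferon signalling, had 151 CPM in the combination, 204 in LNP-cGAMP, 321 under anti-PD-L1 and 147 in PBS. The anti-PD-L1 library was the highest for both. Gbp2, the most abundant of the list, had 834 CPM in the combination, 895 in LNP-cGAMP, 1792 under anti-PD-L1 and 1263 in PBS and was not past 1.5-fold, at a log2 ratio of 0.50.

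AW112010, an interferon-induced transcript, was 2.65-fold (95% interval 2.56 to 2.74) higher in anti-PD-L1 than in PBS, at 1154 CPM in anti-PD-L1, against 435 CPM in PBS. Of the type I interferon list 8 of 41 genes were higher and 0 lower (median 0.36), and of the classical monocyte list 5 of 19 were higher and 0 lower (median 0.23), among them Plac8 at 3304 CPM in anti-PD-L1, against 1912 CPM in PBS. Cd274, which encodes PD-L1 itself, stood at 161 CPM in anti-PD-L1, against 88.7 CPM in PBS. MHC class II had 0 of 7 genes past 1.5-fold (median -0.06). Much of this was smaller in male-called members alone, where 23 of 3293 genes were higher (0.698%) and 51 lower (1.55%). There 0 of 41 type I interferon genes were past 1.5-fold (median 0.21), 3 of 17 interferon-gamma genes were higher (median 0.44) and 2 of 19 classical monocyte genes were higher (median 0.19). Ly6c2 had a log2 ratio of 0.73 in male-called members, beside 1.68 in all members. AW112010 was at 0.52 in male-called members, beside 1.39 in all, Plac8 at 0.43 beside 0.79, and Cd274 at 0.33 beside 0.79, all 3 under 1.5-fold in male-called members. The other leading genes were Fam26f, a calcium homeostasis modulator family gene that answers to interferon, at 121 CPM in anti-PD-L1, against 53.1 CPM in PBS; Upp1, a uridine phosphorylase, at 134 CPM in anti-PD-L1, against 62.9 CPM in PBS; Pla2g16, a phospholipase, at 95.8 CPM in anti-PD-L1, against 43.8 CPM in PBS; and Lrg1, an acute-phase glycoprotein, at 240.2 CPM in anti-PD-L1, against 120.4 CPM in PBS. For Upp1 the log2 ratio was -0.06 in male-called members alone, beside 0.98 in all members; for Pla2g16 it was 0.27 beside 0.98. Selm, a selenoprotein, stood at 175.5 CPM in anti-PD-L1, against 86.0 CPM in PBS.

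Lower in anti-PD-L1 were Spp1, at 110.3 CPM in anti-PD-L1, against 346 CPM in PBS, and all 4 measured genes of the list of neutrophil-recruiting and platelet-type chemokines (median -1.27). Pf4, a CXC chemokine of platelets and macrophages, had 2740 CPM in the combination, 2887 in LNP-cGAMP, 782 under anti-PD-L1 and 1702 in PBS. Cxcl3, a neutrophil attractant, stood at 12.1 CPM in anti-PD-L1, against 49.3 CPM in PBS, and Ppbp, a platelet chemokine, at 6.99 CPM in anti-PD-L1, against 63.2 CPM in PBS. For Pf4 the anti-PD-L1 library was the lowest of the 4. Hist1h2ap and Pgk1 were lower as well, but each has near-identical copies in the mouse genome that could take its reads. Among the 12 cell-cycle genes 7 were lower and 0 higher (median -1.11). Without cycling members the median was 0.09, on the other side of 0, but the call of these members shares genes with the list. Without members of other markers and the top 5% by UMI the median was 0.03. Birc5, a mitotic gene, stood at 15.9 CPM in anti-PD-L1, against 64.1 CPM in PBS. Cald1 and Igfbp4 were lower too, with log2 ratios of -0.09 and -0.36 without members of other markers and the top 5% by UMI, beside -3.16 and -2.52 with them. For Cald1 this follows from the call, since it is among the markers by which those members were left out.

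The combination, set against PBS, had 182 of 3298 genes at least 1.5-fold higher (5.52%) and 115 at least 1.5-fold lower (3.49%), with a median of 0.02 over all genes. The leading genes included many that also led for LNP-cGAMP: Saa3 was 41.9-fold (95% interval 39.4 to 44.8) higher, H2-Q7 7.19-fold, Ly6c2 5.47-fold, Ccl8 3.98-fold, Ifi27l2a 2.93-fold and Irf7 2.9-fold higher. C3, the central complement protein, had 105 CPM in the combination, 75.1 in LNP-cGAMP, 52.0 under anti-PD-L1 and 31.2 in PBS and was highest in the combination. Of the type I interferon list 20 of 41 were higher and 0 lower (median 0.58), of class I 8 of 21 higher and 1 lower (median 0.44), of the monocyte chemokines 4 of 8 higher and 0 lower (median 0.73), and of class II 0 of 7 higher and 4 lower (median -1.28). Il1b was 9.32-fold (95% interval 8.44 to 10.3) lower and Fn1 3.29-fold (95% interval 3.17 to 3.42) lower. Among the 12 cell-cycle genes 10 were lower and 0 higher (median -1.34, and -0.42 without cycling members, whose call shares genes with the list). The topoisomerase Top2a stood at 9.9 CPM in the combination, against 61.7 CPM in PBS. The tubulin-binding Stmn1 stood at 28.1 CPM in the combination, against 114 CPM in PBS. These pooled values mix 2 unlike groups of cells, described further on.

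Adding the antibody to LNP-cGAMP went with few differences when all members were summed: in the combination over LNP-cGAMP, 34 of 3298 genes were at least 1.5-fold higher (1.03%) and 35 at least 1.5-fold lower (1.06%). Class II genes led the higher ones, with 6 of 7 higher and 0 lower (median 1.43). H2-Eb1 was 4.24-fold (95% interval 3.99 to 4.51) higher, H2-Aa 3.71-fold, H2-Ab1 3.62-fold and Cd74 2.73-fold higher; all stayed below their PBS values. In male-called members alone the class II median was -0.14, on the other side of 0. Male-called members also differed in more genes, with 82 of 3293 higher (2.49%) and 319 lower (9.69%) in the combination. Ckb, the brain-type creatine kinase, stood at 302 CPM in the combination, against 129.5 CPM in LNP-cGAMP. Of the type I interferon list 0 of 41 were higher and 4 lower (median -0.36). In male-called members alone 0 of 41 were higher and 36 lower (median -1.14), and of the interferon-gamma list 16 of 17 were lower (median -1.54). Ccl5 was 3.66-fold (95% interval 3.44 to 3.9) lower and Mrap 4.81-fold lower. Gzmb stood at 10.2 CPM in the combination, against 218 CPM in LNP-cGAMP, Nkg7 at 6.94 CPM in the combination, against 61.4 CPM in LNP-cGAMP, and the neutrophil gene Retnlg at 7.8 CPM in the combination, against 50.9 CPM in LNP-cGAMP. Gzmb and Nkg7 moved with the number of members that carried at least 3 UMIs of T or NK cell markers (1 in the combination, 21 in LNP-cGAMP). Members with at least 3 UMIs of neutrophil markers numbered 4 in the combination and 40 in LNP-cGAMP. Retnlg is itself among those neutrophil markers, so that count is not independent of its level.

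Adding LNP-cGAMP to the antibody went with more: in the combination over anti-PD-L1, 102 of 3298 genes were at least 1.5-fold higher (3.09%) and 50 at least 1.5-fold lower (1.52%). Saa3 was 23.4-fold (95% interval 22.6 to 24.2) higher, Ccl8 8.07-fold, Spp1 5.19-fold, H2-Q6 6.8-fold and Ms4a7, a macrophage membrane protein, 6.23-fold higher. The monocyte chemokines had 5 of 8 higher and 0 lower (median 1.11), and class II 0 of 7 higher and 6 lower (median -1.12). The type I interferon list had 6 of 41 higher and 0 lower with a median of 0.14, and the interferon-gamma list 0 of 17 higher and 2 lower (median -0.32), with Socs1 at 151 CPM in the combination, against 321 CPM in anti-PD-L1. Il1b was 5.53-fold (95% interval 5.01 to 6.12) lower, and the calgranulins S100a8 and S100a9, alarmins of neutrophils and early monocytes, were 2.85-fold and 2.58-fold lower. Members with at least 3 UMIs of neutrophil markers numbered 4 of 857 in the combination and 17 of 813 in anti-PD-L1. Without members of other markers and the top 5% by UMI the log2 ratio of S100a8 was -1.43, beside -1.48 with them, and that of S100a9 -0.34, beside -1.29. Cnn3, an actin-binding protein, was 2.64-fold lower.

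LNP-cGAMP was thus set against its absence in 2 pairs of libraries that share none, LNP-cGAMP over PBS and the combination over anti-PD-L1. Of the genes higher in these, 83 were common, which is 24.9% of the 333 higher without the antibody and 81.4% of the 102 higher with it; of the lower genes 35 were common, 15.8% of 222 and 70.0% of 50. Across the 3298 genes the log2 ratios had a Pearson correlation of 0.68 and a Spearman correlation of 0.70, given as a description over genes, which are not independent and share 4 libraries. For the antibody the like pairs, anti-PD-L1 over PBS and the combination over LNP-cGAMP, had a Pearson correlation of -0.11. They had 2 higher genes in common (3.51% of 57) and 5 lower (9.43% of 53). Of all genes, 1.03% were higher and 1.06% lower in the combination over LNP-cGAMP. The common genes were Xist and Gbp2b, higher, and Spp1, Ddx3y, Eif2s3y, Mt2 and Il1b, lower. Xist and the Y-linked Ddx3y and Eif2s3y differ with the sex of the pools, as both pairs set a mixed pool against a male-called one.

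Within the combination library, female-called and male-called members differed in more genes than the combination did from PBS. The 507 female-called members had a median of 20413 UMIs and 2.25% mt- UMIs, and the 133 male-called members 17424 UMIs and 2.29%. Of 3293 genes (Xist, Y-linked and haemoglobin genes left out), 312 were at least 1.5-fold higher (9.47%) and 145 at least 1.5-fold lower (4.4%) in female-called members. In the anti-PD-L1 library, with 533 female-called and 190 male-called members, the like counts were 44 (1.34%) and 10 (0.304%). Each library was a pool of 3 mice, so a call of sex splits the cells by mouse, and sex and mouse cannot be told apart. This split was added after the male-called values had been seen.

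In the combination most interferon genes were higher in the female-called than in the male-called members. Of the type I interferon list 31 of 41 were higher and 0 lower in female-called members (median 0.93), of the interferon-gamma list 16 of 17 (median 1.5), of class I 12 of 21 (median 0.67) and of class II 6 of 7 (median 2.11), each with 0 lower. Isg15 had 721 CPM in female-called and 181 CPM in male-called members of the combination, beside 897.5 CPM in male-called members of LNP-cGAMP and 400.1 CPM in those of PBS. Irf7 differed less, at 863 CPM in female-called and 603 CPM in male-called members of the combination, beside 1227 CPM in male-called members of LNP-cGAMP and 309 CPM in those of PBS, so that its male-called level was above that of PBS. Gbp2b had 214 CPM in female-called and 27.9 CPM in male-called members of the combination, and Cd274 had 145 CPM in female-called and 38.0 CPM in male-called members. H2-Aa had 607 CPM in female-called and 110.3 CPM in male-called members, beside 115 CPM in male-called members of LNP-cGAMP and 1385 CPM in those of PBS. For class II the male-called members of the combination and of LNP-cGAMP were thus close, and for Isg15 they were far apart.

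Saa3 was higher in male-called members of the combination, whereas in the anti-PD-L1 library it was higher in female-called members (log2 ratio female over male 1.45). It had 1165 CPM in female-called and 17416 CPM in male-called members of the combination, where male-called members were 14.9-fold (95% interval 14.7 to 15.2) higher. Male-called members of LNP-cGAMP had 5545 CPM, and those of PBS 90.2 CPM. Mmp8 had 52.8 CPM in female-called and 462 CPM in male-called members of the combination, and Dusp1, a phosphatase that curbs MAP kinases, had 161 CPM in female-called and 1014 CPM in male-called members. Of 9 immediate early genes 0 were higher and 8 lower in female-called members (median -0.76). Some genes were alike in both: H2-K1 had 3719 CPM in female-called and 3937 CPM in male-called members, H2-Q7 had 370.5 CPM in female-called and 397 CPM in male-called members, and Vcan had 337 CPM in female-called and 317 CPM in male-called members.

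The split bears on each comparison with the combination. In male-called members alone, the combination over PBS had a type I interferon median of -0.33 (beside 0.58 in all members), a class II median of -3.25 (beside -1.28) and an all-gene median of -0.08. LNP-cGAMP over PBS, in male-called members alone, had a type I interferon median of 0.87 and a class II median of -2.92, close to the values of all members. The remaining Csf1r-positive cells of the combination showed the same split, with 612 female-called and 249 male-called cells: female over male, the type I interferon median was 0.69, the class II median 1.34 and the log2 ratio of Saa3 -3.06. In the anti-PD-L1 library female over male gave a type I interferon median of 0.16 and a class II median of 0.11 in members, with H2-Q7 at 123 CPM in female-called and 33.7 CPM in male-called members and Ly6c2 at 995 CPM in female-called and 415 CPM in male-called members.

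**Figure D4:**
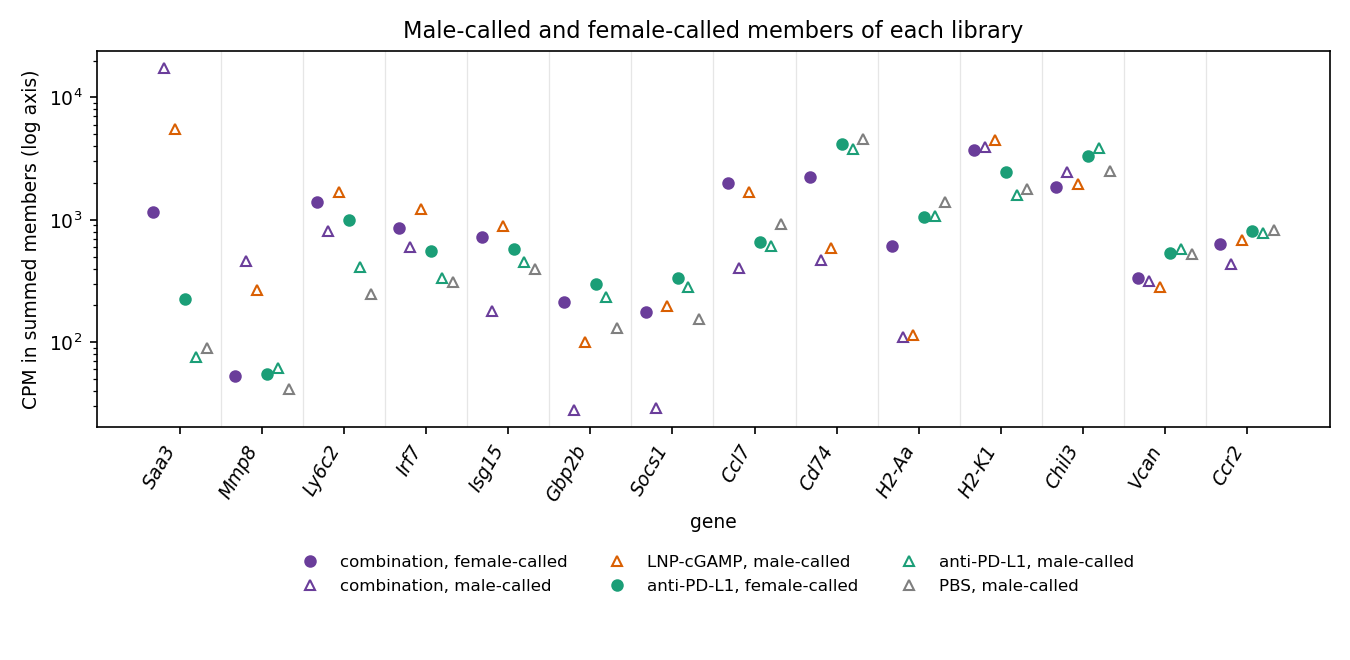
CPM in the summed members (vertical axis, log scale) of 14 genes, for female-called members (filled circles) and male-called members (open triangles) of the combination and anti-PD-L1 libraries and for male-called members of LNP-cGAMP and PBS, which had 1 and 0 female-called members. In the combination, Saa3 and Mmp8 are higher and Isg15, Gbp2b, Socs1, Ccl7, Cd74 and H2-Aa lower in male-called members.

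Members ranged from cells with almost no C1q to cells rich in it, and the markers of early monocytes ran against C1q within each library. The summed C1qa, C1qb and C1qc, subunits of the complement recognition protein that macrophages make, had a median of 62.4 UMIs per 10000 in the combination, 67.4 in LNP-cGAMP, 16.2 under anti-PD-L1 and 36.0 in PBS. Cut at under 10 and at 30 or more per 10000, which is a range and not a division into types, C1q-low members were 30.3% in the combination, 27.6% in LNP-cGAMP, 46.7% under anti-PD-L1 and 38.5% in PBS, and C1q-high members 63.0% in the combination, 66.1% in LNP-cGAMP, 44.2% under anti-PD-L1 and 51.2% in PBS. Between the 2 limits lay 57 members in the combination, 64 in LNP-cGAMP, 74 under anti-PD-L1 and 42 in PBS. Of 14 macrophage differentiation genes, 4 were higher and 0 lower in the combination over PBS (median 0.20), 4 higher and 2 lower in LNP-cGAMP over PBS (median 0.24) and 0 higher and 4 lower in anti-PD-L1 over PBS (median -0.23). C1q-low members had a lower median depth, 16584 UMIs against 21487 in C1q-high members of the combination, and 12798 against 24350 in PBS.

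Chil3 had 3480 CPM in C1q-low and 1093 CPM in C1q-high members of the combination, and 4369 CPM in C1q-low and 1222 CPM in C1q-high members of PBS. Thbs1 had 1413 and 330.5 CPM in C1q-low and C1q-high members of PBS, and Il1b 477 and 81.0 CPM. Ms4a7, Mrc1 and Ccl8 were higher at the C1q-high end: Ccl8 had 487 CPM in C1q-low and 1749 CPM in C1q-high members of LNP-cGAMP. The main differences by treatment appeared at both ends. For LNP-cGAMP over PBS the type I interferon median was 0.95 in C1q-low and 0.89 in C1q-high members, the class II median -2.61 and -2.67, and Saa3 had 5083 and 5518 CPM in LNP-cGAMP, against 99.1 and 103 CPM in PBS. For anti-PD-L1 over PBS the type I interferon median was 0.50 in C1q-low and 0.31 in C1q-high members, a difference that was not tested.

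**Figure D5:**
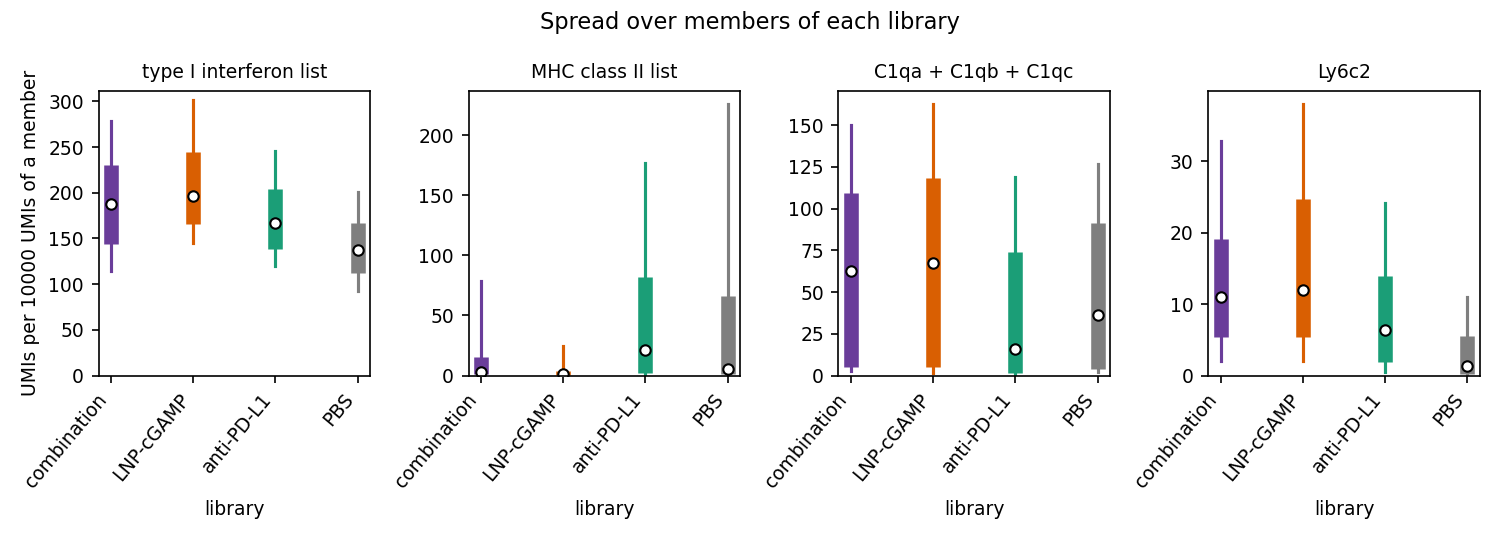
UMIs per 10000 UMIs of a member (vertical axes) for the type I interferon list, MHC class II, the 3 C1q genes and Ly6c2, in the combination, LNP-cGAMP, anti-PD-L1 and PBS libraries. The panel titled MHC class II list sums H2-Aa, H2-Ab1, H2-Eb1 and Cd74 alone. Points are medians, thick bars run from the 25th to the 75th percentile and thin lines from the 10th to the 90th. The class II bars reach 226 in PBS and 24.5 in LNP-cGAMP at the 90th percentile.

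The same medians were taken in the other Csf1r-positive cells. For LNP-cGAMP over PBS the type I interferon median was 0.94 in members, 0.92 in Cd163 Ccl24 cells without Lyve1 and 0.94 in the remaining Csf1r-positive cells, and the class II median was -2.75 in members, -0.78 in Cd163 Ccl24 cells and -1.84 in the remaining cells. For anti-PD-L1 over PBS the proliferation median was -1.11 in members, -0.14 in Cd163 Ccl24 cells and -0.07 in the remaining cells (the member value without cycling members is given above), and the type I interferon median was 0.36 in members, 0.14 in Cd163 Ccl24 cells and 0.20 in the remaining cells. For the combination over PBS the class II median was -1.28 in members, 0.17 in Cd163 Ccl24 cells and -1.05 in the remaining cells. Lyve1-high cells numbered 29 in LNP-cGAMP, too few for that comparison. In anti-PD-L1 over PBS, with 476 and 439 Lyve1-high cells, their median was 0.40 for proliferation, 0.81 for class II and 0.22 for type I interferon genes. None of these differences between cell groups was tested, since each rests on 1 library a group.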

How the data were processed

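Single-cell RNA was measured in 1 pooled library a treatment. Per the file headers the deposited matrices came from Cell Ranger 3.0.2 and hold whole UMI counts for each gene in each barcode; the submitters' processing notes name mm10. The labels name both version 2 and version 3 of the kit, and doublet removal is not given in the sources used here; no doublet caller was run. Cells with at least 1000 UMIs, 200 genes and at most 10% mt- UMIs were kept. Counts of members were summed per library and divided by the total (CPM). A gene was measured with at least 20 UMIs in all and 50 CPM in 1 library, and was called higher or lower at 1.5-fold or more with 10 CPM added to each value. Intervals are 95% exact Poisson (CPM), conditional binomial (folds) and Clopper-Pearson (shares). They cover counting error only.

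The members and gene lists were chosen with earlier results of these data known. Genes were named by rank (for each treatment over PBS the 10 highest and 8 lowest ratios, for the combination over each agent the 5 highest and 5 lowest, without rule, mt-, ribosomal, haemoglobin, immunoglobulin, Xist, Y-linked and unnamed genes) and by mean level or ratio within a list; other genes were named after their values were seen. Some genes that the ranking selects are not reported here. A sex call needed a UMI of Xist and none of a Y-linked gene, or the reverse. Coordinates are GENCODE vM21 (GRCm38), and promoters RefSeq GRCm38.p6. Alternatives changed the cell filters, the rule, the added CPM, the scaling (TMM of edgeR 4.0.16, median of ratios), cell weights, background RNA and the cells included. Python 3.11.15, numpy 2.4.6 and scipy 1.17.1 were used, and the scripts were tested on simulated data.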

Additional observations from a re-analysis of the deposited data

Results flagged for a closer look

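For the combination over anti-PD-L1, the only comparison in which both libraries held members of both calls, 2 gene lists had medians on opposite sides of 0 in female-called and male-called members. The type I interferon median was 0.2128 on the log2 scale in female-called members and -0.5327 in male-called members. The median of immediate early and dissociation stress genes was -0.3484 in female-called members and 0.9770 in male-called members. The difference between the calls was not tested: each side rests on 1 library a treatment, a call marks cells of different mice of a pool, and sex and mouse cannot be told apart.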

How the results depend on the processing

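Most values held their direction: of 345 list medians under the alternatives, for lists whose median was past 1.5-fold, 4 changed sign and 29 dropped under 1.5-fold, and of 1596 values for named genes past 1.5-fold, 11 changed sign and 60 dropped under it. The share of Csf1r-positive cells depended on the rule: with at least 1 UMI each of Vcan and Ccr2 it was 45.09% in the combination, 58.01% in LNP-cGAMP, 41.37% under anti-PD-L1 and 27.85% in PBS, with at least 3 UMIs each 24.79% in the combination, 34.85% in LNP-cGAMP, 33.73% under anti-PD-L1 and 19.41% in PBS, and with the rule at 5000 UMIs 12.99% in the combination, 17.12% in LNP-cGAMP, 23.11% under anti-PD-L1 and 13.58% in PBS. Counts of genes are given as higher and lower. With 50 CPM added they were 191 and 135 for LNP-cGAMP over PBS, 25 and 32 for anti-PD-L1 over PBS, 91 and 63 for the combination over PBS, 22 and 20 for the combination over LNP-cGAMP and 58 and 26 for the combination over anti-PD-L1. At 2-fold they were 101 and 63 for LNP-cGAMP over PBS, 6 and 25 for anti-PD-L1 over PBS, 49 and 32 for the combination over PBS, 10 and 11 for the combination over LNP-cGAMP and 36 and 10 for the combination over anti-PD-L1. These follow from the stricter call. With no CPM minimum, which adds low genes, they were 535 and 531 for LNP-cGAMP over PBS and 57 and 78 for the combination over LNP-cGAMP; 234 were lower for anti-PD-L1 over PBS, 337 lower for the combination over PBS and 179 higher for the combination over anti-PD-L1. With the rule at 5000 UMIs, 63 were lower for the combination over PBS, and the neutrophil list median for the combination over LNP-cGAMP was 0.2025. For anti-PD-L1 over PBS, 34 were lower without cycling members and 35 without members of other markers or top UMIs, where the proliferation median was 0.0863 and 0.0253. For the combination over PBS, the log2 ratio of Cald1 was 0.0921 with an mt- limit of 5% and 0.0047 without cycling members, and that of Birc5 was 0.0650 without cycling members. Birc5 and other genes of the proliferation list are among the genes that call a cycling member, so their values without cycling members follow in part from that call. In male-called members alone, with the minimum level applied anew to them, 30 were higher for anti-PD-L1 over PBS, 296 lower for the combination over PBS, 96 higher and 314 lower for the combination over LNP-cGAMP, and 276 higher and 374 lower for the combination over anti-PD-L1. Log2 ratios there were -0.0600 for Upp1 (anti-PD-L1 over PBS), -1.0994 for Isg15 and -1.1615 for Ccl7 (combination over PBS), -0.0581 for H2-Aa, -0.1383 for H2-Ab1, -0.3282 for Cd74, -0.6768 for Ckb and -0.1383 for the class II median (combination over LNP-cGAMP), and -0.5840 for Ccl7 (combination over anti-PD-L1). Beyond fewer cells the cause was not tested. Higher and lower counts for LNP-cGAMP over PBS were 285 and 267 under TMM and 278 and 277 under median-of-ratios scaling, beside 333 and 222. No paired analysis was possible because each treatment had 1 library; for the same reason no replicate could be left out. Depth limits genes under 50 CPM, which were not described.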

Other observations

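Complement, lipid and lysosome genes were lists not described above. Beside their counts, the share of all 3298 genes that were higher than in PBS was 5.52% in the combination, 10.1% in LNP-cGAMP and 1.73% under anti-PD-L1. The share lower in LNP-cGAMP was 6.73%. Of 8 measured complement genes 3 were higher and 0 lower in each treated library against PBS, and they were C3, C4b and Cfb in each. C4b, a component of the classical pathway, had 99.7 CPM in the combination, 125 in LNP-cGAMP, 90.3 under anti-PD-L1 and 43.3 in PBS, and Cfb, factor B of the alternative pathway, had 63.3 CPM in the combination, 84.3 in LNP-cGAMP, 45.0 under anti-PD-L1 and 21.1 in PBS. Plin2, which coats lipid droplets, had 1658 CPM in the combination, 1544 in LNP-cGAMP, 843 under anti-PD-L1 and 749.9 in PBS, and the fatty acid carrier Fabp5 had 390 CPM in the combination, 359 in LNP-cGAMP, 107 under anti-PD-L1 and 143 in PBS; both were higher in the libraries with LNP-cGAMP. In the same lipid list Pltp, Lpl and Trem2 were lower in LNP-cGAMP than in PBS, which gave 3 higher genes of 11 measured, with 3 lower. In LNP-cGAMP against PBS, 3 of 16 lysosomal genes were higher, beside 10.1% of all genes. Among them was the protease Ctsl, at 3048 CPM in LNP-cGAMP, against 1466 CPM in PBS.

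Among 8 measured genes of the cGAS and STING pathway, 2 (Ifi204 and Tbk1) were higher in LNP-cGAMP than in PBS and 0 lower, with a median of 0.34. Over all genes 10.1% were higher and 6.73% lower. Tmem173, which encodes STING, had 157.5 CPM in the combination, 167.5 in LNP-cGAMP, 146.5 under anti-PD-L1 and 109 in PBS. All 10 mt- genes were lower in LNP-cGAMP than in PBS (median -1.53), whereas 0 of 10 were past 1.5-fold in anti-PD-L1 (median -0.23). The part of the mt- content in the other differences was looked at only through the alternative limit of 5%.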
